A study of Mus musculus with 8 samples.

Results

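The 10 genes described here belong to the transforming growth factor beta (TGF-beta) superfamily and were followed between cells that a magnetic column held and cells that passed through it. They are the activin and inhibin beta subunits Inhba and Inhbb, the ligands Tgfb1, Tgfb2 and Tgfb3, the bone morphogenetic protein (BMP) ligands Bmp2, Bmp4 and Bmp6, the co-receptor Eng and the inhibitory SMAD Smad6. All 10 were found among the 35975 annotated genes of the tables, and all 10 passed the filter on low counts. The list was drawn up with the comparison of the fractions already known, so the members' own differences are a description: no p-value is given for them, and counts of members past a threshold stand only beside the same count over all genes. Tests are given for other genes of the pathway, 106 listed and 67 expressed enough to be tested, which the rule did not use. Their lists were also drawn up with earlier results of these data known, so the shares of them that passed are a description too.

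The cells came from subcutaneous fibrosarcomas grown from syngeneic cells in WT C57BL/6 mice, a wild-type background that all libraries share. Digested tumors were put over magnetic columns, which gave an iron positive eluate (4 libraries) and an iron negative flowthrough (4 libraries). Each fraction has the tags 3L, 3R, 4R and 5L, and the labels do not say which tags come from separate animals, so p-values measure the spread between these libraries. The labels give neither an antibody sort nor the ages of the mice, and the series title calls the cells macrophages. Depth was 19036520 to 24306607 estimated counts per library.

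The defining macrophage markers were high in every library: a list of 12 summed to 28200 to 30810 CPM (a counts-per-million scale, with TMM, a trimmed-mean scaling, between libraries) in the iron negative and to 21250 to 28280 CPM in the iron positive libraries, with 5 genes lower and none at 0. Lyz2 alone held 9416 to 10390 CPM of these sums in the iron negative and 7999 to 12210 CPM in the iron positive libraries. It did not pass (0.11 ± 0.15, adjusted p = 0.67, edgeR). The 13 endothelial markers summed to 36.3 to 75.6 CPM in the iron negative libraries. In the iron positive libraries they summed to 186 (3L), 1603 (3R), 938 (4R) and 245 CPM (5L), and all 13 passed the test as higher, with none at 0 in either fraction. The mural list (8 of 10 tested genes higher) went from 25.1 to 54.6 CPM to 90.6 to 734 CPM. The fibroblast and fibrosarcoma list (7 of 11 higher) went from 133 to 402 CPM to 506 to 4787 CPM. It is called the fibroblast list below and does not separate fibroblasts from the fibrosarcoma cells themselves. Tags 3R and 4R were the highest iron positive libraries in all 3 of the endothelial, mural and fibroblast lists. The 5 platelet markers summed to 6.63 to 16.7 CPM in the iron negative libraries and to 362 (3L), 21.0 (3R), 316 (4R) and 70.3 CPM (5L) in the iron positive ones, where 1 of 2 tested genes, Ppbp, was higher. Ppbp alone held 361 (3L), 18.7 (3R), 314 (4R) and 69.2 CPM (5L) of these iron positive sums. The other tested gene, Itga2b, stood at 0.792 to 1.44 CPM there and did not pass. T and NK cell markers summed to 33.4 to 51.2 and 20.01 to 27.3 CPM in the iron negative and positive fractions (1 of 7 tested lower), B cell markers to 6.32 to 7.91 and 4.14 to 7.62 (0 of 2), neutrophil markers to 2.87 to 6.45 and 13.2 to 81.7 (3 of 3 higher, Ly6g at 0 in every iron positive library) and skeletal muscle markers to 2.46 to 4.48 and 18.2 to 55.9 (6 of 6 higher). In bulk RNA, more cells of a type and more RNA per cell cannot be told apart.

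TGF-beta superfamily ligands are secreted dimers that bring a type II receptor kinase together with a type I receptor kinase. The type I receptor phosphorylates SMAD proteins: SMAD2 and SMAD3 after TGF-beta or activin, and SMAD1, SMAD5 and SMAD9 after BMPs, each with SMAD4 as partner. TGF-beta leaves the cell in a latent complex and has to be released, and in tumors it is known for restraining immune cells and for shaping stroma. BMP6 made by endothelium is known for driving the iron hormone hepcidin in liver, and endoglin with the receptor ALK1 carries BMP signals in blood vessels.

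The sequence upstream of the start site was available for 8 of the 10 genes (250 bases before to 50 after the start, RefSeq, GRCm38.p6, the assembly of mm10), and not for Tgfb3 and Bmp2. They are shown for both activin subunits, a pair with unlike sizes of difference, and for Tgfb2 and Eng, a weak and a strong transcript that were both higher in the iron positive fraction. Each is read 5′ to 3′ on the gene's own strand, and capitals mark every match, on either strand, to CAGAC (bound by SMADs) or TATAAA (the usual core promoter box). The windows were also searched for GGCGCC (an element of BMP SMADs) and CCGGAA (a core of ETS factor sites).
Inhba, chr13:16011601-16011900, plus strand: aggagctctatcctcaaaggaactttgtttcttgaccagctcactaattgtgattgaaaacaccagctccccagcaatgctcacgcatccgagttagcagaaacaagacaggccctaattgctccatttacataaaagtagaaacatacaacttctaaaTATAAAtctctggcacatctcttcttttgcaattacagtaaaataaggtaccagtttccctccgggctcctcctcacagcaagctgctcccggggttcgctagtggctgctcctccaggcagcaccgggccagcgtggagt
Inhbb, chr1:119422199-119422498, minus strand: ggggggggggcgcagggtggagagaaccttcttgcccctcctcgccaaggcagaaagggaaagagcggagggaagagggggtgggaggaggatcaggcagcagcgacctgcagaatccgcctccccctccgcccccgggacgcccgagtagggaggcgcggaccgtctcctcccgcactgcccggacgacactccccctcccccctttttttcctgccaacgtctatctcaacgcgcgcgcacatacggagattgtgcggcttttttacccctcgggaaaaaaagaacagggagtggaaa
Tgfb2, chr1:186705940-186706239, minus strand: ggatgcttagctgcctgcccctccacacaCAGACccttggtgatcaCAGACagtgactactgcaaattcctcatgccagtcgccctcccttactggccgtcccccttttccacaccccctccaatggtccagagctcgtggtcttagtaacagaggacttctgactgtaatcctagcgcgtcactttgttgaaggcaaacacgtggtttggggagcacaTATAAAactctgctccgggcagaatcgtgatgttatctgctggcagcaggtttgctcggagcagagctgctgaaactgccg
Eng, chr2:32646345-32646644, plus strand: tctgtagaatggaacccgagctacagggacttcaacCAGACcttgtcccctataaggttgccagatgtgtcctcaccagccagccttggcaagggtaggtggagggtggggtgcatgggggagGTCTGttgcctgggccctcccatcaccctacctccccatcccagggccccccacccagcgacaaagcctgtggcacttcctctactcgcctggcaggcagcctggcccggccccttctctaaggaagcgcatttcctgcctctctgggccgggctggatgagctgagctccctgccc
The Inhbb window holds 64.3% G and C, against 47.7% in the Inhba window and a median of 52.7% over all 32851 windows. TATAAA begins 91 bases before the Inhba start and 31 bases before the Tgfb2 start, and 13.6% of all windows hold it. CAGAC or its reverse complement occurs 221 and 204 bases before the Tgfb2 start, 214 and 127 bases before the Eng start and 119 bases before the RefSeq start of Bmp6, in a set where 49.6% of all windows hold it. The Bmp6 window (chr13:38345466-38345765) lies inside the annotated gene, which begins at 38345107, so it is not upstream of that start. CCGGAA was found, on the minus strand of the window, 95 bases before the Bmp4 start (14.9% of all windows), and GGCGCC in none of the 8 windows (11.9% of all windows). The windows of Inhbb, Tgfb1 and Smad6 hold none of these letters. These are matches of letters, not sites.

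Levels of the activin, BMP2, BMP4, BMP6, TGF-beta2 and endoglin transcripts were higher in every iron positive library than in any iron negative one, and those of TGF-beta1 were lower. Thus 7 of the 10 members lay above without overlap and 1 below, where 11.2% and 10.3% of all 13343 tested genes did. By edgeR's quasi-likelihood test at an adjusted p under 0.05, 7 members were past the threshold as higher and 1 as lower, where 8.49% and 5.21% of all genes were. Nothing is read from these counts, since the members were picked with the contrast known. With the tag as a block 7 were called higher and 1 lower (12.8% and 9.39% of all genes), and with libraries scaled to the macrophage markers 7 and 0 (10.6% and 0.15%). Without iron positive 4R 1 was called higher (2.96% of all genes), with limma voom 0 (1.42%), and with any of the 4 iron negative libraries left out 0 (0% to 0.191%). The median fitted log2 fold change of the 10 was 2.3, against -0.01 over all tested genes.

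**Figure D1:**
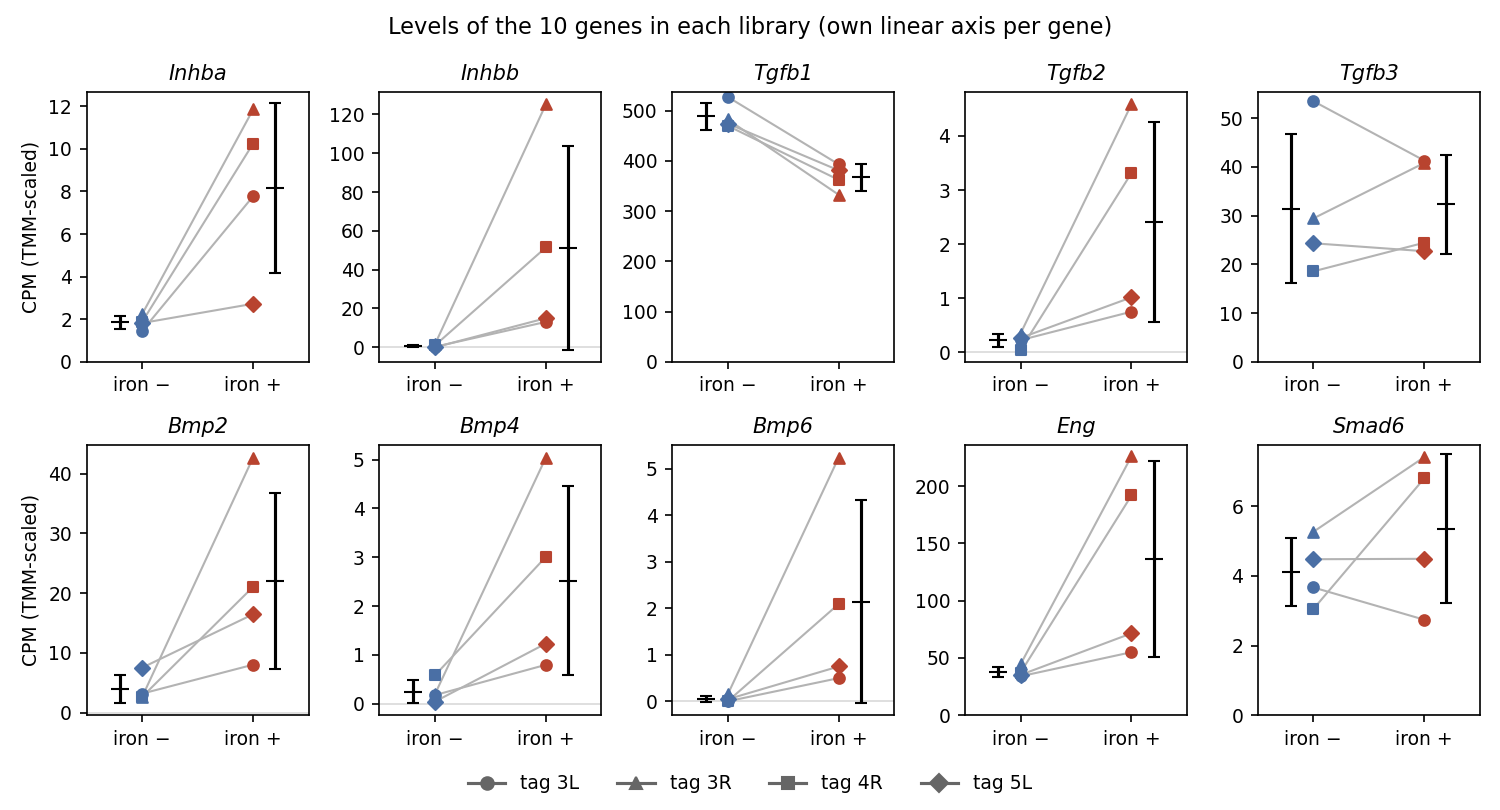
TMM-scaled CPM of each of the 10 genes (vertical linear axis, its own for each gene) in the 4 iron negative (blue) and 4 iron positive (red) libraries; grey lines join libraries of the same tag, and black bars are the mean ± SD (n = 4). Inhbb runs from at most 1.51 CPM to 13.1 or more, Tgfb1 is lower in all 4 iron positive libraries, and Tgfb3 and Smad6 overlap.

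Inhbb encodes the beta B subunit, which forms activin B. It lies on chromosome 1 at 119415465 to 119422248 (mm10), minus strand, and has 1 annotated transcript in the tables. Its level was 0.265 (3L), 1.51 (3R), 0.985 (4R) and 0 CPM (5L) in the iron negative libraries, from 6, 31, 22 and 0 estimated counts. The iron positive libraries had 13.1 (3L), 125 (3R), 51.5 (4R) and 15.0 CPM (5L), from 263, 2484, 1181 and 341 counts. The lowest iron positive value was thus well above the highest iron negative one, and within the iron positive fraction 3R and 4R were far above 3L and 5L. The means were 0.69 ± 0.687 and 51.2 ± 52.4 CPM (SD, n = 4), and the fitted log2 fold change was 6.24 ± 1.05 (SE). Over the alternatives tried it ranged from 3.33 on log2(TPM + 1), a scale that compresses low genes, to 6.92 without iron negative 3R.

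Inhba encodes the beta A subunit, which forms activin A, and lies on chromosome 13 at 16011851 to 16031621. Its iron negative values were 1.46 (3L), 2.24 (3R), 1.88 (4R) and 1.83 CPM (5L). Its iron positive values were 7.78 (3L), 11.8 (3R), 10.2 (4R) and 2.73 CPM (5L), a fitted log2 fold change of 2.14 ± 0.41. The tags 3L, 3R and 4R had a similar step, with log2 ratios of 2.08 to 2.17, and 5L had a small one of 0.47 (each of CPM plus 0.5). On the TPM scale, which divides by transcript length, the fractions overlapped for this gene, with 0.657 in iron positive 5L and 0.753 in iron negative 5L, and the estimates were split differently there: the longer of 2 transcripts (6390 bases) held 34.5% of the gene's TPM in iron negative 5L and 79.6% in iron positive 5L.

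The balance of the activin subunits differed between the fractions. Per length, Inhbb made up 0% to 49.6% of the summed TPM of both subunits in the iron negative libraries and 57.6% (3L), 91.0% (3R), 79.5% (4R) and 87.7% (5L) in the iron positive ones. The summed TPM of both subunits went from 0.355 to 0.946 in the iron negative libraries to 5.34 to 45.1 in the iron positive ones. The iron negative share rests on few counts, at most 31 for Inhbb.

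Tgfb1 was by far the most abundant member and the one that was lower. It encodes TGF-beta1, the isoform best known from immune cells and platelets, and lies on chromosome 7 at 25687002 to 25705077. Its iron negative values were 527.6 (3L), 482.7 (3R), 470.1 (4R) and 474.5 CPM (5L). Its iron positive values were 393.3 (3L), 332.7 (3R), 362.4 (4R) and 381.3 CPM (5L), so all 4 lay below all iron negative ones, and 3R was the lowest. The fitted log2 fold change was -0.41 ± 0.07, and -0.22 ± 0.08 when libraries were scaled to the summed macrophage markers, a scaling that moved the median of all genes by 0.199. Per 1000 counts of those markers Tgfb1 had 15.89 to 17.12 counts in the iron negative and 13.78 to 15.66 in the iron positive libraries, lower on that scale too but by a narrow gap. Under the macrophage scaling it was no longer called lower, where 0.15% of all genes were. The markers Adgre1 and Csf1r lost their calls there too (-0.43 to -0.24 and -0.61 to -0.42), and Lyz2 is a large part of the marker sum. A 2175-base protein-coding transcript held 87.5% to 94.8% of the TPM of Tgfb1 in every library. The summed platelet markers given above, which were mostly Ppbp, were highest in iron positive 3L and 4R. The part of platelets in the Tgfb1 level was not tested.

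Tgfb2 and Tgfb3 encode the other 2 isoforms, both known from stroma. Tgfb2 (chromosome 1, 186622792 to 186705989) was near the detection limit in the iron negative libraries, with 0.221 (3L), 0.341 (3R), 0.0448 (4R) and 0.261 CPM (5L) from 1 to 7 counts. The iron positive libraries had 0.748 (3L), 4.59 (3R), 3.31 (4R) and 1.01 CPM (5L), without overlap, a fitted log2 fold change of 3.45 ± 0.73 that was 0.79 on log2(TPM + 1). Tgfb3 (chromosome 12, 86056745 to 86079041) stood at 53.5, 29.4, 18.6 and 24.4 CPM in iron negative 3L, 3R, 4R and 5L and at 41.3, 40.8, 24.5 and 22.7 CPM in the iron positive libraries of the same tags. These overlapped, with a fitted value of 0.04 ± 0.34 that ranged from -0.15 without iron negative 4R to 0.42 without iron negative 3L, so no direction is given. By CPM the tag 3L was highest for Tgfb3 in both fractions, though barely above 3R in the iron positive one. On TPM iron positive 3R was higher (17.1, against 15.7 in 3L). Of the summed TPM of the 3 isoforms, Tgfb1 made up 94.3% to 97.8% in the iron negative and 92.8% to 96.8% in the iron positive libraries, Tgfb3 2.17% to 5.64% and 3.15% to 6.53%, and Tgfb2 at most 0.0328% and 0.639%.

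Among the BMP ligands Bmp2 was the most abundant in every library, and all 3 were higher in the iron positive fraction. Bmp2, known as a ligand of endothelium and bone (chromosome 2, 133552159 to 133562885), had 3.18 (3L), 2.63 (3R), 2.64 (4R) and 7.52 CPM (5L) in the iron negative libraries. The iron positive ones held 8.03 (3L), 42.7 (3R), 21.1 (4R) and 16.5 CPM (5L), a fitted log2 fold change of 2.46 ± 0.55. The gap was narrow between iron positive 3L and iron negative 5L. Bmp4 (chromosome 14, 46383520 to 46390669), a ligand of vessel wall and mesenchyme, had 4, 4, 13 and 1 counts in the iron negative libraries and 16, 100, 69 and 28 counts in the iron positive ones, in the order 3L, 3R, 4R and 5L. That is 0.0435 to 0.582 CPM against 0.798 to 5.04 CPM, with a fitted value of 3.31 ± 0.78.

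Bmp6 (chromosome 13, 38345107 to 38500302) was the weakest member by counts in the iron negative libraries, with 0, 3, 0 and 1 counts (0 to 0.146 CPM). The iron positive libraries held 10 (3L), 104 (3R), 48 (4R) and 17 counts (5L), or 0.498, 5.24, 2.09 and 0.748 CPM. The fitted log2 fold change, 5.39 ± 1.10, leans on those few counts and reached 6.71 without iron negative 3R. Txndc5 overlaps Bmp6 on the opposite strand over 224 exon bases (5.74% of the exon bases of Bmp6), averaged 95.1 and 108 CPM and did not pass (log2 fold change 0.19, adjusted p = 0.139, edgeR). Hamp, the hepcidin gene that BMP6 is known to drive in liver, had 0, 1, 0 and 3 counts in the iron negative and 0, 0, 1 and 0 counts in the iron positive libraries, too few to be tested. The summed TPM of the 3 BMP ligands was 1.27 to 2.94 in the iron negative and 4.04 (3L), 26.3 (3R), 12.3 (4R) and 7.57 (5L) in the iron positive libraries.

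Eng encodes endoglin, a co-receptor for BMP9, BMP10 and TGF-beta on endothelium that activated macrophages can also carry (chromosome 2, 32646595 to 32682669). Its level was 33.9 (3L), 44.3 (3R), 37.1 (4R) and 35.1 CPM (5L) in the iron negative libraries, a narrow range. The iron positive libraries had 55.0 (3L), 226 (3R), 191.8 (4R) and 71.5 CPM (5L), so 3R and 4R were again the high ones. The means were 37.6 ± 4.64 and 136 ± 85.5 CPM, and the fitted log2 fold change was 1.85 ± 0.44. A 3422-base protein-coding transcript held 59.5% to 71.8% of its TPM in every library. Smad6, an inhibitory SMAD that blocks BMP receptors (chromosome 9, 63953076 to 64022059), overlapped: 3.67, 5.26, 3.04 and 4.48 CPM in iron negative 3L, 3R, 4R and 5L against 2.74, 7.41, 6.8 and 4.49 CPM in the iron positive libraries. The fitted value was 0.38 ± 0.32.

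**Figure D2:**
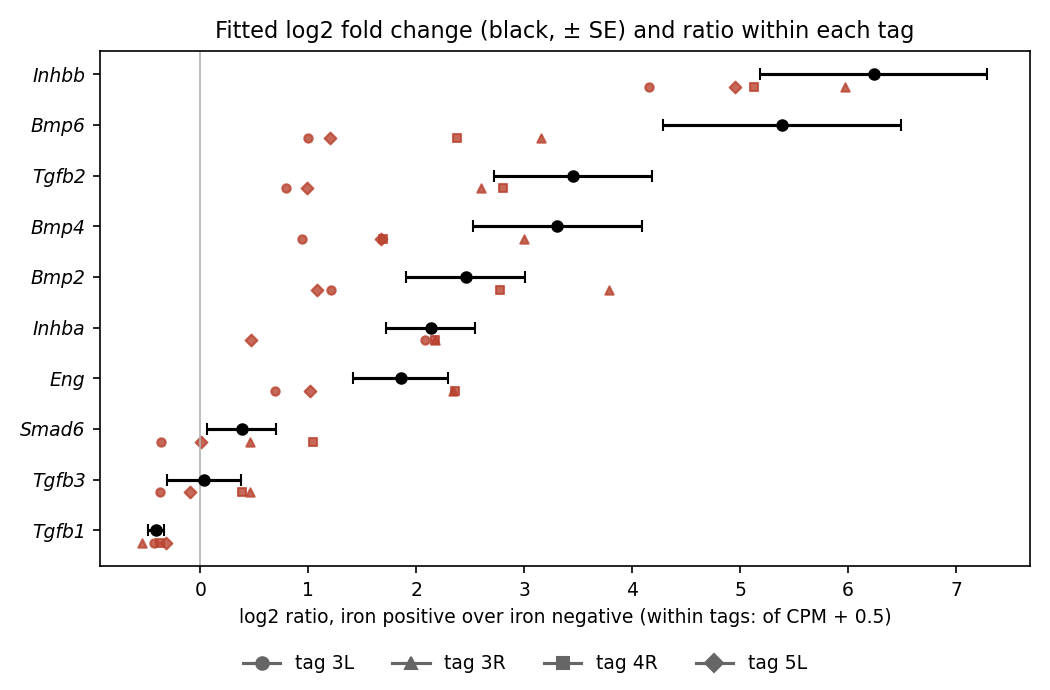
Log2 ratio of iron positive over iron negative (horizontal axis) for each gene, as fitted by edgeR (black, ± SE) and as the ratio within each tag of CPM plus 0.5 (red symbols). Inhbb and Bmp6 have the largest fitted values, 6.24 and 5.39, and the added 0.5 pulls the within-tag ratios of weak genes such as Bmp6 toward 0.

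Per length, the order of the members differed between the fractions mainly by Inhbb. In the iron negative libraries the mean TPM was 333 ± 6.2 for Tgfb1 (SD, n = 4), 15.8 ± 2.3 for Eng and 12.2 ± 5.4 for Tgfb3, and Eng and Tgfb3 overlapped. Smad6 (2.10), Bmp2 (1.48) and Inhba (0.499) followed, and Bmp4, Inhbb, Bmp6 and Tgfb2 lay at 0.263 or less, with overlapping ranges. In the iron positive libraries Tgfb1 was still first, at 268 ± 16.9, followed by Eng at 64.9 ± 43.4. Inhbb, at 16.7 ± 17.3, then stood beside Tgfb3 at 13.1 ± 3.9 and Bmp2 at 8.63 ± 5.99, 3 genes whose ranges overlapped. Of the summed TPM of all 8 ligands, Tgfb1 made up 93.9% to 97.2% in the iron negative libraries and 91.0% (3L), 72.9% (3R), 85.9% (4R) and 92.6% (5L) in the iron positive ones. Inhbb made up at most 0.136% and then 1.31% (3L), 12.3% (3R), 5.28% (4R) and 1.55% (5L).

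On the CPM scale the iron positive libraries ranked most members in a shared way. From lowest to highest the order was 3L, 5L, 4R and 3R for Inhbb, Tgfb2, Bmp2, Bmp4, Bmp6, Eng and Smad6, which is also the order of the summed endothelial, mural and fibroblast markers. Tgfb1 had the reverse ends, highest in 3L and lowest in 3R. Inhba was lowest in 5L instead. Set against 1000 counts of the endothelial markers of the same library, Inhbb had 70.4 (3L), 78.1 (3R), 54.9 (4R) and 61.3 (5L) counts in the iron positive libraries, a 1.42-fold range, where its CPM ranged 9.55-fold. The same ratio was 0 to 20 in the iron negative libraries. Against the fibroblast and fibrosarcoma markers Inhbb held 25.9 to 29.2 counts per 1000 in the iron positive libraries, a 1.13-fold range. The iron negative ones held 0 to 4.25. Bmp6 ranged 10.5-fold in CPM and 1.47-fold per endothelial count (2.23 to 3.27, against 0 to 1.94 in the iron negative libraries). Its range was 1.35-fold against the fibroblast list and 1.73-fold against the mural list, where that of Inhbb was 1.755-fold. Tgfb2 ranged 1.44-fold against the endothelial, 1.32-fold against the mural and 1.96-fold against the fibroblast list. For Bmp4 these ranges were 1.6-fold, 1.49-fold and 2.08-fold.

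For the other members the ratio to endothelial markers did not put the iron positive fraction above. Tgfb2 had 2.86 to 4.13 counts per 1000 endothelial-marker counts in the iron positive and 0.754 to 6.94 in the iron negative libraries, and Bmp4 3.15 to 5.03 against 1.16 to 9.80. Bmp2 had 22.4 to 67.2 against 34.8 to 200, with overlap. Inhba had 7.39 to 41.8 against 29.7 to 48.5, also with overlap. Eng had 141 to 295 against 587 to 934, and so was lower on this scale in every iron positive library, as were Smad6, Tgfb1 and Tgfb3. Ratios in the iron negative libraries rest on small sums of markers. The part of any of these cell types, fibrosarcoma cells included, in the levels of the members was not tested.

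**Figure D3:**
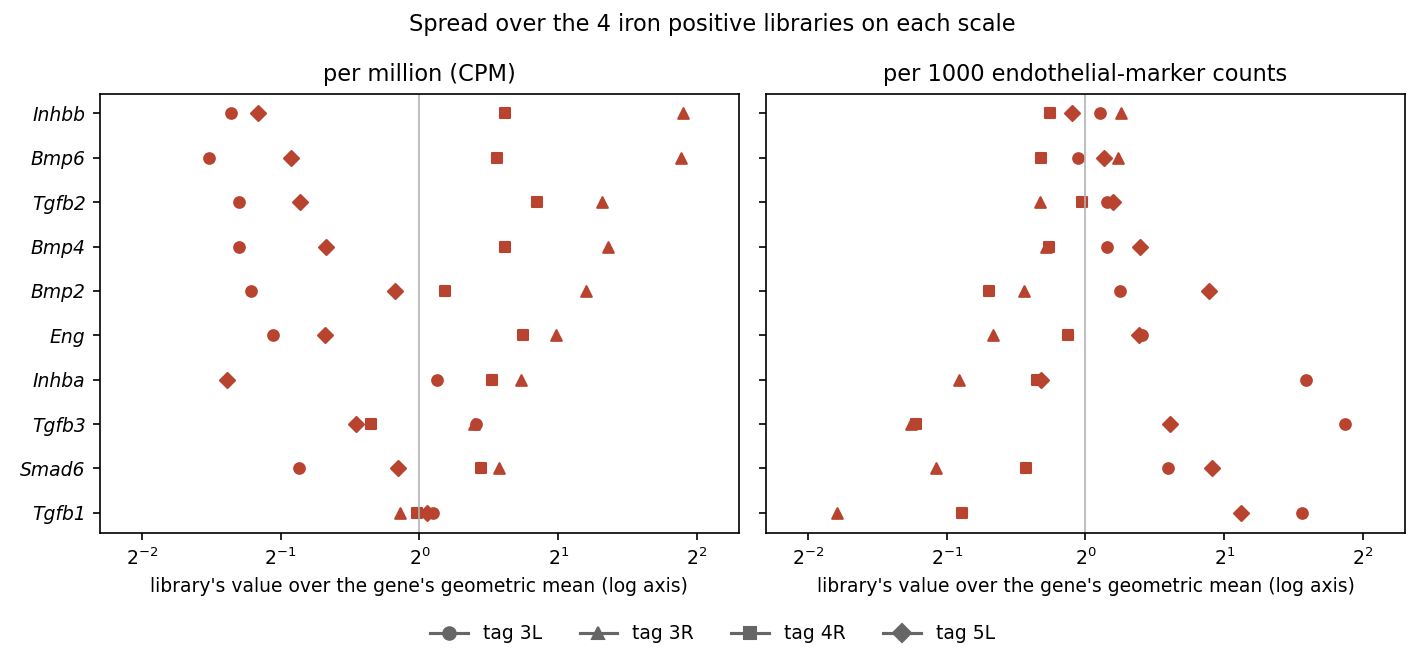
Each point is 1 iron positive library, placed at its value over the gene's geometric mean of the 4 (log axis, base 2), on CPM (left) and on counts per 1000 endothelial-marker counts (right). The points of Inhbb, Bmp6, Tgfb2 and Bmp4 lie closer together on the right, those of Inhba, Tgfb3, Smad6 and Tgfb1 farther apart. The mural and fibroblast lists are not drawn.

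The genes with the most similar pattern over the 8 libraries were picked by the root mean square difference of centred log2 CPM, among genes of at least 5 CPM. Nearest to Inhbb were Adgrf5 (0.41), Ptprb (0.45) and Podxl (0.45), and nearest to Eng were Uaca, Icam2 and Pkn3 (0.16 to 0.18). Nearest to Bmp6 were Prss23 (0.19), Fbln5 (0.25) and Nes (0.30), to Bmp4 Zfp366, Kit and Mcf2l (0.38 to 0.44), to Bmp2 Apold1, Plcb4 and Ctla2a (0.31 to 0.49) and to Tgfb2 Ctla2a, Npr1 and Fbln5 (0.31 to 0.36). Inhba was nearest to Lrrk2, Fam198b and Chst11 (0.27 to 0.29). Tgfb1 was nearest to Adgre1 (0.04), the F4/80 antigen of macrophages, then Ctsc (0.04) and Laptm5 (0.05). Tgfb3 was nearest to Ciart, Bhlhe40 and Tnfrsf12a (0.27 to 0.28), and Smad6 to Zfpm1, Gne and Rgs12 (0.18 to 0.23).

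Of the 106 other genes of the pathway, 67 were expressed enough to be tested. Of these 13 rose (19.4%) and 4 fell (5.97%) in the iron positive libraries (edgeR, adjusted over all genes tested), where 8.49% and 5.21% of all genes did, and the median log2 fold change of the 67 was 0.28. The lists were drawn up with earlier results of these data known, so nothing is read from these shares. Under the macrophage scaling 14 rose and 1 fell (10.6% and 0.15% of all genes), and with library totals 12 rose and 4 fell. With the tag as a block 23 rose and 9 fell, where 12.8% and 9.39% of all genes did. Genes that release or hold latent TGF-beta and targets of the pathway made up most of the increases, and the receptor Tgfbr1, 2 negative regulators and Tgfbi were the decreases. With iron negative 3L, 3R or 4R left out no pathway gene passed in edgeR; 25, 26 and 24 were then higher and 10, 13 and 10 lower at an unadjusted p under 0.05. With iron negative 5L left out only Lrg1 passed. Without iron positive 4R 6 rose and 3 fell, and without iron positive 5L 17 rose and 7 fell. Limma voom called 1 higher (Fn1) and 2 lower (Pmepa1 and Tgfbi), and log2(TPM + 1) 6 higher and 2 lower. The endothelial, mural and fibroblast markers given above move with the same libraries as the increases, and their part was not tested.

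**Figure D4:**
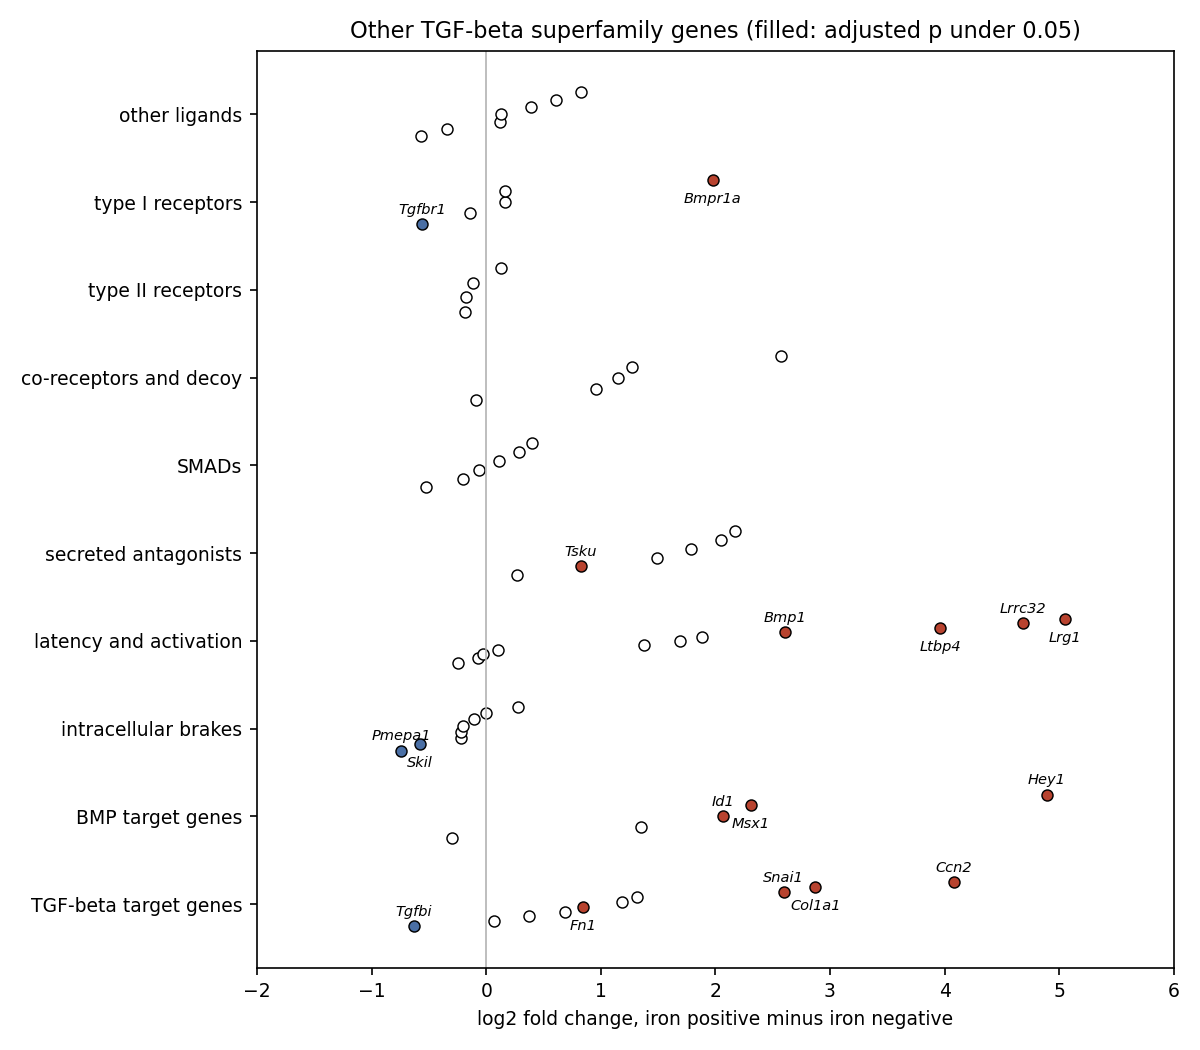
Log2 fold change, iron positive minus iron negative (horizontal axis), of the 67 tested pathway genes by role (rows; the vertical place within a row only separates points). Filled points passed the edgeR test over all genes, red for the 13 that rose and blue for the 4 that fell.

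Among the type I receptors, 1 of 5 tested rose and 1 fell. Bmpr1a, a BMP receptor also known as ALK3, stood at 0.88 to 1.998 CPM in the iron negative and 2.14 to 10.03 CPM in the iron positive libraries, a rise of 1.98 ± 0.51 (adjusted p = 0.0373, edgeR). Tgfbr1, the kinase that TGF-beta itself uses, had 621.9 (3L), 596.1 (3R), 539.2 (4R) and 488.3 CPM (5L) and at 409.2, 404 284.9 and 425.4 CPM in the iron positive libraries, without overlap. It fell by 0.56 on the log2 scale (SE 0.14, adjusted p = 0.0328), and by 0.36 with adjusted p = 0.171 under the macrophage scaling. Of the 4 tested type II receptors none passed in edgeR, with 1 at an unadjusted p under 0.05 and 1 lower in DESeq2. Tgfbr2, the most abundant, had 334.5 to 369.4 CPM in the iron negative and 288.8 to 327.1 CPM in the iron positive libraries (-0.19 ± 0.06, adjusted p = 0.0826), and 0.01 under the macrophage scaling. Acvrl1, which encodes ALK1 and partners with endoglin, did not pass (76.8 ± 4.3 and 86.1 ± 14.2 CPM, 0.17 ± 0.11, adjusted p = 0.358).

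Of 5 tested co-receptors and decoys none passed in edgeR, with 3 at an unadjusted p under 0.05, 3 higher in DESeq2 and 2 with the block. Bambi, a decoy receptor that lacks the kinase, stood at 5.22 to 11.5 CPM and at 12.7 to 19.4 CPM (0.96 ± 0.27, adjusted p = 0.0506, and 0.0386 with the block). Tgfbr3, betaglycan, which presents TGF-beta2 to its receptors, had 2.57 ± 0.76 (adjusted p = 0.0581, and 0.015 with the block). Rgmb, a BMP co-receptor and the most abundant of the list, had -0.09 ± 0.09 (adjusted p = 0.545), a value whose sign turned under the macrophage scaling. Of 6 tested SMADs none passed in edgeR or DESeq2, with 1 at an unadjusted p under 0.05. Smad7, the inhibitory SMAD of TGF-beta signalling, stood at 208 to 272.6 CPM and at 118.1 to 229.1 CPM (-0.52 ± 0.21, adjusted p = 0.123, and 0.0148 with the block). Of 7 tested ligands that are no members none passed in edgeR, with 1 at an unadjusted p under 0.05 and Gdf3 lower in DESeq2. Gdf15, a stress-induced ligand, had 75.3 ± 43.4 and 115 ± 73.5 CPM (adjusted p = 0.451). Gdf3 fell with the block (-0.59, adjusted p = 0.0105), and without it stood at -0.57 ± 0.16 (adjusted p = 0.0526).

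Latency and activation genes had 4 rises among 11 tested genes, 7 rises and 1 fall with the block. Lrrc32, also called GARP, which anchors latent TGF-beta on cell surfaces, had 0.62 (3L), 1.41 (3R), 1.08 (4R) and 0.43 CPM (5L) and at 6.13, 49.5, 27.6 and 7.79 CPM in the iron positive libraries. It rose by 4.69 ± 0.78 (adjusted p = 0.0173). Nrros, the anchor known from macrophages and microglia, averaged 224 ± 24.7 and 221 ± 31.9 CPM and did not pass (adjusted p = 0.917). Thbs1, the most abundant of the list, averaged 596 ± 357 and 1548 ± 1003 CPM and was higher in all 4 tags. It did not pass (1.38 ± 0.55, adjusted p = 0.129, edgeR, and 0.0269 with the block). Ltbp4, a matrix protein that binds the latent complex, rose by 3.96 ± 0.86 (1.55 to 10.04 against 15.6 to 157 CPM, adjusted p = 0.0236). Lrg1, a secreted modulator of TGF-beta signalling through endoglin in vessels, rose by 5.05 ± 0.62, from 0.13 to 0.63 CPM to 7.98 (3L), 22.1 (3R), 22.2 (4R) and 5.68 CPM (5L), with adjusted p = 0.014. Bmp1, a matrix protease despite its name, rose by 2.61 ± 0.60 (adjusted p = 0.0281).

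Secreted antagonists bind ligands outside the cell, and intracellular brakes act on receptors or SMADs. Of 6 tested antagonists Tsku, which binds several ligands of the family, rose by 0.83 ± 0.23 (adjusted p = 0.0499), a call lost under library totals, the macrophage scaling, either other filter, limma voom and both TPM scales. With the block 5 rose. Of 8 tested brakes 2 fell, 3 with the block. Pmepa1, a target of TGF-beta that blunts its signal, had 543.5 (3L), 511.8 (3R), 534.5 (4R) and 573.3 CPM (5L) and at 317.7, 366.3, 222.4 and 387.7 CPM in the iron positive libraries. It fell by 0.74 on the log2 scale (SE 0.16, adjusted p = 0.0226). Skil, a SMAD corepressor that TGF-beta also induces, fell by 0.58 (SE 0.16, adjusted p = 0.0467). Under the macrophage scaling neither passed, at -0.53 (adjusted p = 0.0937) and -0.39 (adjusted p = 0.105).

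BMP target genes had 3 rises among 5 tested genes, and 3 rises and 1 fall with the block. Id1, an inhibitor of DNA binding and a direct BMP target in endothelium, had 8.18 (3L), 4.97 (3R), 3.81 (4R) and 6.39 CPM (5L) and at 8.92, 32.0, 39.7 and 17.5 CPM in the iron positive libraries. It rose by 2.07 ± 0.45 (adjusted p = 0.0242), with hardly any step in 3L. Hey1, a transcription factor that Notch drives as well, rose by 4.89 ± 0.78 (0.17 to 0.83 against 3.74 to 24.8 CPM, adjusted p = 0.0173), and Msx1, a homeobox factor, by 2.31 ± 0.60 (adjusted p = 0.0396). Id3 was higher in all 4 tags but did not pass (1.35 ± 0.41, adjusted p = 0.0647, and 0.0401 under the macrophage scaling). Id2, far more abundant, had 241 ± 61.7 and 196 ± 55.4 CPM (-0.30 ± 0.24, adjusted p = 0.436), lower in all 4 tags and past the threshold with the block (adjusted p = 0.0202).

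Of 10 tested TGF-beta target genes 4 rose and Tgfbi fell. Ccn2, the connective tissue growth factor, stood at 1.64 to 5.36 CPM in the iron negative libraries and at 16.4 (3L), 119.6 (3R), 54.5 (4R) and 27.8 CPM (5L) in the iron positive ones, a rise of 4.08 ± 0.67 (adjusted p = 0.0173). Snai1, a transcription factor of mesenchymal transition, rose by 2.60 ± 0.46 (adjusted p = 0.0177), Col1a1, a collagen chain that is also on the fibroblast list, by 2.87 ± 0.79 (adjusted p = 0.0461) and Fn1, fibronectin, by 0.85 ± 0.17 (adjusted p = 0.0209). The call of Col1a1 was lost under library totals (adjusted p = 0.0516, edgeR), limma voom and both TPM scales, and held in 2 of 8 fits with 1 library left out. Bmpr1a, Msx1 and Bmp1 lost theirs under limma voom and both TPM scales, and held in 2, 2 and 3 of those 8 fits. Tgfbi, a matrix protein that macrophages make in quantity, had 2945 (3L), 2653 (3R), 2507 (4R) and 2329 CPM (5L) and at 1753, 1656, 1448 and 1876 CPM in the iron positive libraries, without overlap. It fell by 0.63 on the log2 scale (SE 0.11, adjusted p = 0.0176). Under the macrophage scaling it was the only pathway gene that was still called lower (-0.44, adjusted p = 0.0473).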

How the data were processed

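RNA of 8 libraries was sequenced in bulk. Per the submitters' processing notes, kallisto 0.46.2 and the build mm10 were used; the transcript release was not stated there. The deposited tables hold estimated counts per transcript, not normalized as far as their unequal totals show, and TPM, scaled by effective length and library total, with transcript lengths as other values.

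Transcripts were joined to GENCODE M21 (GRCm38) by identifier without version. Of 119414, 116728 matched, and the rest held 0.888% to 0.961% of the counts. Estimated counts were summed per gene and rounded. The main test was edgeR 4.0.16 (R 4.3.3), quasi-likelihood, on the fraction alone after filterByExpr (13343 genes) and TMM scaling, with calls made at 0.05 after Benjamini-Hochberg adjustment. SEs are the absolute coefficient over the square root of F, which is approximate. The main fit leaves the tag out, which matters for the SEs: that of Inhbb was 1.055 without and 0.262 with the tag as a block. Alternatives used DESeq2 1.42.0, limma 3.58.1 on voom values and on log2(TPM + 1) or log2(TPM + 0.1), other scalings and filters, the tag as a block, and each library left out.

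The members, the 10 pathway lists, the 9 marker lists and the alternatives were chosen with earlier results of these data known. Named were all members, every pathway gene past the threshold, the highest expressed gene of a list without one, and the 3 genes most like each member, leaving out predicted names. Acvrl1, Bambi, Tgfbr3, Gdf3, Nrros, Thbs1, Id2, Id3 and Hamp were named after their values were seen.

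Equal tags correlated across genes in their deviations from the fraction's mean (0.53, 0.52, 0.27 and 0.30 for 3L, 3R, 4R and 5L), all above 0.1. Some unequal tags did so too. Iron positive 4R had 0.26 with iron negative 3R, and iron positive 5L had 0.23 with iron negative 3L. The check therefore does not settle a pairing for 4R and 5L, and the labels do not state one. Replicates differed by more than counting noise (chi-square per gene 9.61 to 27.8 in the iron negative and 44.3 to 113 in the iron positive fraction). The edgeR step was tested on simulated data for the simulated comparison of the fractions over 13209 genes. At 2-fold it found 45 of 61 seeded changes, at 4-fold 35 of 37, at 8-fold 51 of 52 and at 16-fold 50 of 50. It also called 9 of 13009 genes that had none. The simulation gave each gene the same spread in both fractions and seeded no change in the weakest genes, so these rates need not hold for the real libraries.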

Additional observations from a re-analysis of the deposited data

Results flagged for a closer look

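Among the members and the called pathway genes, 54 groups of 4 libraries were searched for a library far from the other three, and 2 stood apart; chance alone marks about 1 group in 20. Bmp2 was 7.52 CPM in iron negative 5L, against 2.63 to 3.18 CPM in the other iron negative libraries. Tgfbr1 was 284.9 CPM in iron positive 4R, against 404 to 425.4 CPM in the other iron positive libraries.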

How the results depend on the processing

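Over all genes tested, 1133 were higher and 695 lower. The counts were 1703 and 1070 with DESeq2, 189 and 273 with limma voom, 413 and 205 on log2(TPM + 1), 706 and 270 on log2(TPM + 0.1), and 1705 and 1253 with the replicate block; they were 1172 and 362 with library totals and 1420 and 20 under the macrophage scaling. Leaving out 1 library gave 0 to 1487 higher and 0 to 979 lower genes. Of the pathway genes 13 were higher and 4 lower, against 25 and 7 with DESeq2, 1 and 2 with limma voom, 6 and 2 on log2(TPM + 1), 23 and 9 with the replicate block, 1 lower under the macrophage scaling, and 0 to 17 higher and 0 to 7 lower without 1 library. The cause of these shifts was not tested. The 7 members above without overlap became 4 where at least 1 CPM in 4 libraries was asked, since 3 members were no longer kept. They became 6 on TPM, where Inhba overlapped. The share of all genes without overlap was not counted under these settings, so nothing is read from the 2 counts. The block and limma voom give no levels of their own for this count. Of the members Tgfb3 alone changed sign, in 4 of 18 alternatives. Tgfb2, Bmp4 and Bmp6 rest on at most 13 counts per iron negative library, which limits their fold changes.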
